A study of Rattus norvegicus with 9 samples.

Results

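Calr, Pdia4, Hyou1 and Sdf2l1 encode chaperones and folding factors of the endoplasmic reticulum (ER) and were followed through 9 RNA-seq libraries. The cells were RN46A, a serotonergic line immortalised from rat raphe. The genes were picked by name because earlier analysis of these same data showed them higher with sodium valproate (VPA), most of all in VPA replicate 2 (library VPA_3 of the submitters). They are 4 of the 32662 genes in the count table, and all 4 had enough counts to be among the 12719 genes tested. Their values for VPA against control, and the high level in VPA 2, are therefore a description and support nothing by themselves. RN46A cells kept at 33 °C in 5% serum were differentiated for 72 h at 39 °C in 1% serum. Cultures then spent 72 h with 0.5 mM VPA (3 libraries), with 0.5 mM lithium (3 libraries) or as controls (3 libraries). The labels state no vehicle for the controls. Both drugs are mood stabilisers; VPA also inhibits histone deacetylases, and lithium inhibits glycogen synthase kinase 3.

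Proteins bound for the membrane or for secretion fold in the ER. Chaperones there hold unfinished chains, and disulfide isomerases join their cysteines. When unfolded chains build up, the sensors ATF6, IRE1 and PERK start the unfolded protein response, in which ATF6 and XBP1 switch on chaperone genes. Calreticulin (Calr) is a calcium-binding lectin that retains glycoproteins until they are folded. Pdia4, also called ERp72, is a protein disulfide isomerase. Hyou1, also called GRP170, is a large relative of the HSP70 chaperones that helps the central chaperone BiP release its nucleotide. Sdf2l1 works in a complex with the BiP co-chaperone ERdj3.

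Libraries held 9580591 to 13030300 reads assigned to genes, and within each group every pair of libraries differed beyond sampling noise (chi-square per degree of freedom 27.0 to 68.3). Whether the 3 libraries of a group are separate cultures is not stated, so p-values reflect the scatter among these libraries and that may be technical. The authors' tables pair 1384 gene identifiers with names, and genes without a name there were not analysed here by name. The serotonergic label could be checked on 4 named genes of 18 on a marker list (Hmx2, Hmx3, Htr5b and Maob), and the defining Tph2 and Slc6a4 were not among them. These 4 summed to 30.7, 24.2 and 25.5 CPM in VPA 1, 2 and 3, to 22.7 to 22.8 CPM with lithium and to 19.7 to 25.5 CPM in controls. The sum hides opposite moves: edgeR called 3 of the 4 higher with VPA than in control and 1 lower (adjusted p under 0.05). Of tested genes with a symbol 50.2% were called higher and 26.9% lower, and of all tested genes 5.71 and 2.99%. The RNA is from whole cultures, where fewer cells of a type and less RNA per cell cannot be told apart.

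Calr (ENSRNOG00000003029) was at 1434, 3370.2 and 1495 CPM (reads scaled to a common library size with TMM factors) in VPA 1, 2 and 3. It was at 967, 841 and 857 CPM in lithium 1, 2 and 3, and at 914, 899 and 958 CPM in controls 1, 2 and 3. The 6 lithium and control libraries lay within 1.15-fold of each other, all 3 VPA libraries lay above them, and VPA 2 stood far above VPA 1 and 3. The mean was 2100.0 ± 1100.5 CPM with VPA, 888 ± 68.6 CPM with lithium and 924 ± 30.4 CPM in control (SD, n = 3 each). The log2 fold change of VPA over control was 1.18 ± 0.30 (SE).

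Pdia4 (ENSRNOG00000006228) had 549.7, 1129 and 526 CPM in VPA 1, 2 and 3. Lithium libraries had 304, 313 and 318 CPM, and controls 303, 285 and 315 CPM. Again the lithium and control libraries were close to one another, with a coefficient of variation of 3.91% over the 6, while that of the VPA libraries was 46.4%. The means were 735 ± 341 CPM with VPA, 312 ± 7.12 CPM with lithium and 301 ± 15 CPM in control (SD, n = 3 each). VPA over control gave a log2 fold change of 1.29 ± 0.27 (SE).

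Hyou1 (ENSRNOG00000010944) had 324, 657 and 283 CPM in VPA 1, 2 and 3, against 213, 267 and 208 CPM with lithium and 225, 192 and 216 CPM in control. VPA 3 stood only 1.31-fold above control 3, and lithium 2 was the highest of the libraries without VPA. Its log2 fold change of VPA over control was 1.00 ± 0.28 (SE), the smallest of the 4 genes.

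Sdf2l1 (ENSRNOG00000001859) had the fewest reads and the largest log2 difference. Its CPM values were 26.6, 69.4 and 15.7 in VPA 1, 2 and 3, against 6.29, 5.88 and 6.39 with lithium and 3.36, 8.79 and 7.11 in control. Raw counts were 341, 648 and 195 with VPA, 73, 67 and 83 with lithium, and 37, 81 and 80 in control. Control 1 was low, so the controls spread more for Sdf2l1 (coefficient of variation 43.3%) than for the other genes (3.29% for Calr, 4.97% for Pdia4, 8.21% for Hyou1). The log2 fold change of VPA over control was 2.53 ± 0.49 (SE).

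**Figure D1:**
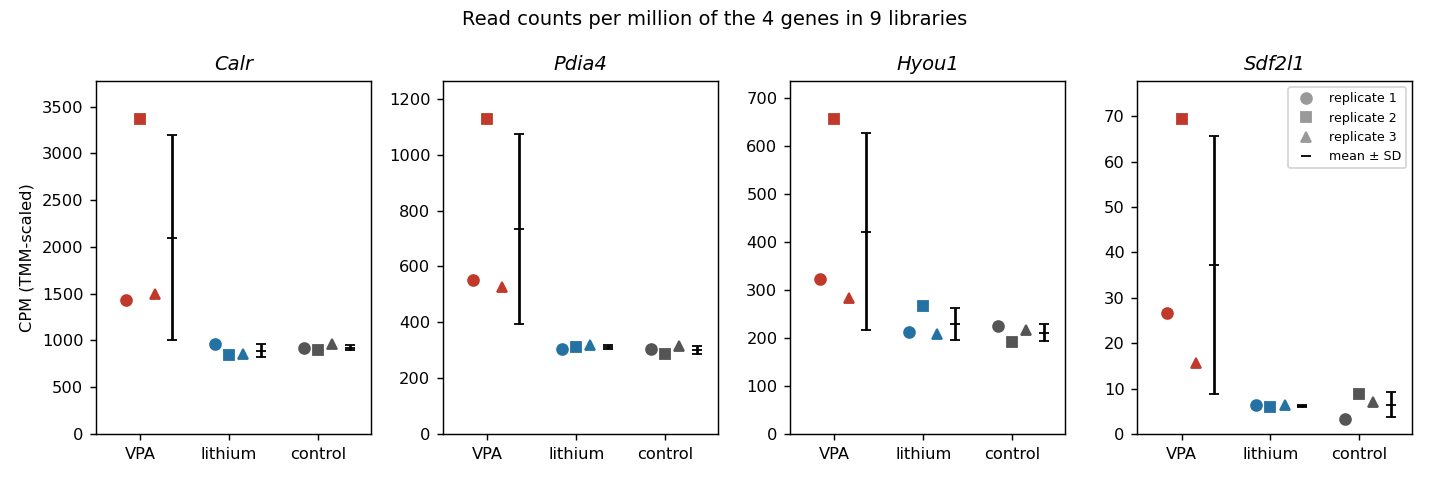
CPM (TMM-scaled, linear axis) of Calr, Pdia4, Hyou1 and Sdf2l1 in each library, by group and replicate number, with the mean and SD of each group in black (n = 3). VPA 2 is the highest library for all 4 genes, at 3370.2, 1129, 657 and 69.4 CPM, and VPA 1 and VPA 3 lie above every lithium and control library.

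With 4 of 4 genes, the VPA libraries did not overlap with the controls, and 14.1% of all tested genes were higher with VPA without overlap. All 4 genes were among the 726 called higher with VPA at an adjusted p under 0.05 (5.71% of those tested, Benjamini-Hochberg adjustment of edgeR's quasi-likelihood p), with 2.99% lower and 8.7% in either direction. These shares are background only, since that contrast chose the genes. With the replicate number as a block 1741 genes were called in either direction, against 1106 without it, and the 4 genes were called in both fits. Together the 4 genes took 0.247, 0.505 and 0.236% of all reads in VPA 1, 2 and 3, against 0.138 to 0.147% with lithium and 0.133 to 0.147% in control.

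To see what upstream sequence the 4 genes share, the 250 bases before each RefSeq start were searched, since ER chaperone promoters are known for a few short elements. The ER stress response element (ERSE) is bound by ATF6 together with the CCAAT-binding factor NF-Y. Its letters are CCAAT, 9 free bases and CCACG, and those of the shorter ERSE-II are ATTGG, 1 free base and CCACG, so both contain the short words CCAAT (on either strand) and CCACG. Sequences are RefSeq's on build GRCr8, 5′ to 3′ on the gene's own strand. They are Calr (chr19:40213117-40213366, plus strand), Pdia4 (chr4:78153192-78153441, minus strand), Hyou1 (chr8:53602632-53602881, plus strand, the first of 2 annotated starts) and Sdf2l1 (chr11:97376628-97376877, plus strand). Capitals mark CCAAT and CCACG on either strand and the whole of each longer match.
Calr: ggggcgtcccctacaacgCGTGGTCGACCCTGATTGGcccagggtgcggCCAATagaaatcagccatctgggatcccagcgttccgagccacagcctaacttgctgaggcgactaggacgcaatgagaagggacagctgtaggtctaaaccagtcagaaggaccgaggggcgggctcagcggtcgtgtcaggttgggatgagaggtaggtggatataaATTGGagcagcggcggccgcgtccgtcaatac
Pdia4: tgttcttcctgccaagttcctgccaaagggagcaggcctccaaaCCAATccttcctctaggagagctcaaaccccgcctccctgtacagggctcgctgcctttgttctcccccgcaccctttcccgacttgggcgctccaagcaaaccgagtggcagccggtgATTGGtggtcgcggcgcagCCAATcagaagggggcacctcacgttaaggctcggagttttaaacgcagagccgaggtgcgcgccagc
Hyou1: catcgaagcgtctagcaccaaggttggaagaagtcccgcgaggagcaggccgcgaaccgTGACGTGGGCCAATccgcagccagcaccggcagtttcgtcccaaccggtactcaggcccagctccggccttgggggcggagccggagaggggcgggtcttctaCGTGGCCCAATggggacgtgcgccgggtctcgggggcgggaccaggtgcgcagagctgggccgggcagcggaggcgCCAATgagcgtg
Sdf2l1: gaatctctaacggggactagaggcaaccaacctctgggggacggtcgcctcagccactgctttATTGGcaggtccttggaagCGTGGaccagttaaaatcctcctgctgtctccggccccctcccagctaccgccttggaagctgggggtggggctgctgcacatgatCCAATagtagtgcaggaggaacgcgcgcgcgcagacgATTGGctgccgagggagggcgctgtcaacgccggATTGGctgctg

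Calr held 1 whole ERSE, on the opposite strand, whose leftmost base lies 232 bases before the start. Such a match on either strand occurred in 0.0657% of 33465 promoter windows of the same length. Hyou1 held 2 ERSE-II matches, with leftmost bases 188 and 88 bases before the start, both on the opposite strand, and ERSE-II occurred in 0.0418% of windows. The first of them shares letters with the 1 match in Hyou1 to TGACGTGG, a form of the XBP1-bound unfolded protein response element, found in 0.52% of windows. Pdia4 and Sdf2l1 held no exact ERSE, ERSE-II or TGACGTGG in these windows, which says only that these letters are not there. All 4 windows held CCAAT, which occurs in 34% of windows, with 3 matches each in Calr, Pdia4 and Hyou1 and 4 in Sdf2l1. CCACG occurred in Calr, Hyou1 and Sdf2l1 and in 27.2% of all windows. TGATGNAAT, a form of the ATF4-bound element of amino acid response genes, occurred in 0 of the 4 windows and in 0.944% of all. The window of the second Hyou1 start held none of the longer matches. A match is a string of letters and does not show that a factor binds there.

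VPA 2 was set against VPA 1 and VPA 3 gene by gene, again as a description. It stood 2.30-fold above their mean (taken on the log2 scale) for Calr, 2.10-fold for Pdia4, 2.17-fold for Hyou1 and 3.38-fold for Sdf2l1. Among all 12719 genes, 1.07, 1.41, 1.31 and 0.338% deviated upwards in VPA 2 by at least as much as Calr, Pdia4, Hyou1 and Sdf2l1 in turn. A deviation of 2-fold or more upwards was seen for 219 genes (1.72%). The other libraries had 105 to 415 genes that far above their own 2 partners, so the number in VPA 2 lay within the range of the others. VPA 2 was the highest of the 9 libraries for the 4 genes and for 10.2% of all genes. For the 4 genes no lithium library stood over 1.27-fold above its partners, and among controls the highest was control 2 for Sdf2l1, at 1.77-fold.

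**Figure D2:**
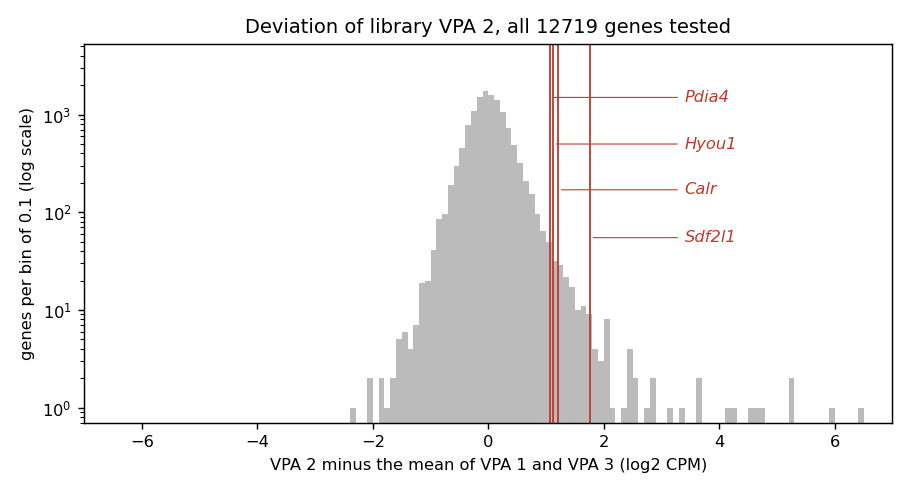
Number of genes (log axis) by the difference of VPA 2 from the mean of VPA 1 and VPA 3 in log2 CPM, in bins of 0.1, with the 4 genes marked by lines. The genes lie in the upper tail, where 0.338% (Sdf2l1) to 1.41% (Pdia4) of the 12719 genes deviated at least as much.

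The labels state no pairing of VPA and control libraries, so the pairs here go by replicate number alone. For Calr the ratio of VPA to control was 1.57 in pair 1, 3.75 in pair 2 and 1.56 in pair 3. For Pdia4 it was 1.81, 3.95 and 1.67, and for Hyou1 1.44, 3.42 and 1.31. Pair 2 was thus the high one for Calr, Pdia4 and Hyou1, while control 2 itself was the lowest control for each of these genes. Sdf2l1 differed, with ratios of 7.92, 7.89 and 2.2, with control 1 the lowest of the controls and control 2 the highest.

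Without VPA 2 the log2 fold change of VPA over control was 0.66 ± 0.20 for Calr, 0.83 ± 0.18 for Pdia4, 0.52 ± 0.19 for Hyou1 and 1.72 ± 0.37 for Sdf2l1 (SE). Pdia4 and Sdf2l1 were then still called (edgeR adjusted p = 0.0231 and 0.0236), while Calr and Hyou1 were not (edgeR adjusted p = 0.0853 and 0.168). Calr also lost its call without control 1, 2 or 3 (adjusted p in edgeR's test = 0.0877, 0.0717 and 0.0574), although its log2 change stayed at 1.16 to 1.22. Hyou1 was called without VPA 3 (log2 change 1.21) and not called without any 1 of the other libraries, with log2 changes of 0.52 to 1.15. For Sdf2l1 the log2 fold change was 2.22 without control 1 and 2.90 without VPA 3. Pdia4 and Sdf2l1 kept their calls against control without any 1 library, and all 4 genes were higher with VPA in each of these fits. Over all genes, 1106 were called with all 9 libraries and 698 without VPA 2. Without control 1, 2 or 3 there were 694, 766 and 946. This contrast chose the genes, so the calls kept and lost are a description.

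**Figure D3:**
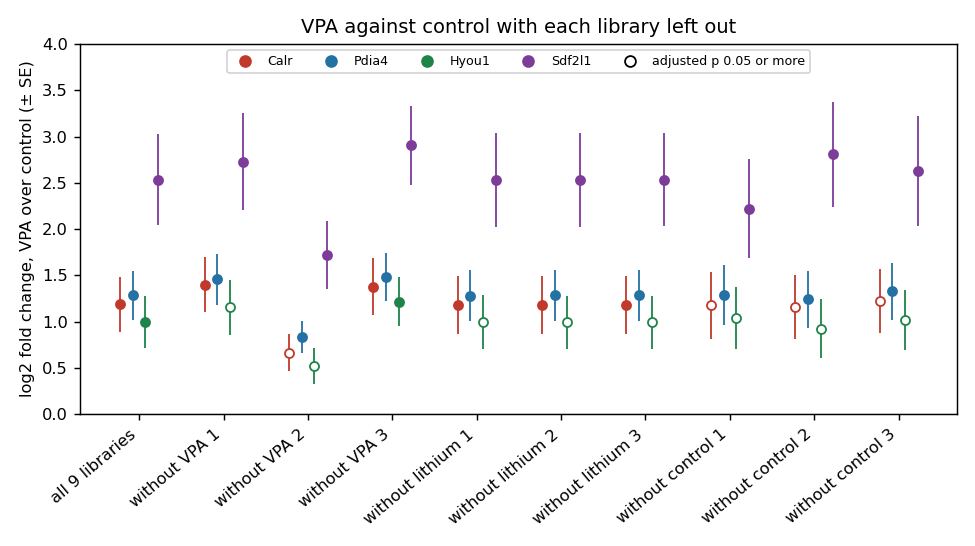
Log2 fold change of VPA over control (vertical axis, ± SE) for the 4 genes with all 9 libraries and with each library left out in turn; open circles have an adjusted p of 0.05 or more. Leaving out VPA 2 gives the lowest value for all 4 genes, 0.66 for Calr, 0.83 for Pdia4, 0.52 for Hyou1 and 1.72 for Sdf2l1.

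Measures of the libraries themselves were set beside VPA 2. Its total of 9658054 reads was the lowest of the VPA group. Control 2, with 9580591 reads, was the lowest control for Calr, Pdia4 and Hyou1 and the highest for Sdf2l1. The 100 most counted genes took 25.1% of reads in VPA 2, against 19.6 and 21.2% in VPA 1 and 3, 23.2% in control 2 and 19.6 to 21.4% in the other libraries. The 8 named genes of a 16-gene fibroblast list summed to 2601, 4200.2 and 2833 CPM in VPA 1, 2 and 3, to 5065 to 6590 CPM with lithium and to 6053 to 7924 CPM in control. VPA 2 was therefore the highest of the VPA libraries in that sum, mostly through the intermediate filament gene Vim (2128, 3456 and 2333 CPM), yet below all libraries without VPA. Of the 8 genes, 5 fell with VPA against control (Col3a1, S100a4, Col1a1, Dcn and Lum), Cnn1 rose, and Vim and Pdgfra did not pass in edgeR. Of tested genes with a symbol 26.9% were called lower and 50.2% higher, and of all tested genes 2.99 and 5.71%. Names come from authors' tables chosen by p-value on these samples, so the count shows nothing particular to the list. VPA 2 stood above the mean of VPA 1 and 3 for S100a4 (1.65-fold), Vim (1.55-fold), Col3a1 (1.35-fold) and Cnn1 (1.25-fold) and below it for Col1a1 (0.846-fold) and Pdgfra (0.795-fold). Lum had 0 counts in all VPA libraries, and Dcn was at most 0.428 CPM there. The part of these differences in the level of the 4 genes was not tested. The 9 named genes of a 14-gene neuronal list summed to 175 CPM in VPA 2, against 185 and 207 CPM in VPA 1 and 3, 51.9 to 67.3 CPM with lithium and 50.3 to 64.0 CPM in control.

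Lithium gave the comparison that the choice of genes did not use, apart from the shared controls. None of the 4 genes was called, and the lithium and control libraries overlapped for each of them (1.71% of all genes were higher with lithium without overlap). The log2 change of lithium over control was -0.06 for Calr (95% interval -0.70 to 0.59), 0.05 for Pdia4 (-0.52 to 0.62), 0.12 for Hyou1 (-0.49 to 0.72) and -0.05 for Sdf2l1 (-1.13 to 1.04). Unadjusted p-values were 0.852, 0.852, 0.679 and 0.929 in edgeR's quasi-likelihood test, and all 4 had an adjusted p of 1. The intervals leave room for a rise of 1.5-fold in Calr, 1.54-fold in Pdia4, 1.65-fold in Hyou1 and 2.06-fold in Sdf2l1. They rest on a spread estimated over all 9 libraries, VPA 2 among them. With only lithium and control libraries, the SE was 0.18 rather than 0.29 for Calr and 0.16 rather than 0.26 for Pdia4. It was 0.18 rather than 0.28 for Hyou1 and 0.34 rather than 0.50 for Sdf2l1. Of all 12719 genes, edgeR called 0 for lithium (0%), with 116 (0.912%) at an unadjusted p under 0.05, and DESeq2 also called 0. The authors' deposited lithium table has 137 lines and lists 0 of the 4.

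Against lithium, VPA values share the libraries that chose the genes, so they are given side by side only. The log2 difference of VPA over lithium was 1.24 ± 0.30 for Calr, 1.24 ± 0.26 for Pdia4, 0.88 ± 0.28 for Hyou1 and 2.58 ± 0.49 for Sdf2l1 (SE). All 3 VPA libraries lay above all 3 lithium libraries for the 4 genes, as for 15.8% of all genes tested. The edgeR fit called Calr, Pdia4 and Sdf2l1 higher, as it did 5.61% of genes (2.32% lower, 7.93% in either direction), and did not call Hyou1. By replicate number 1, 2 and 3, the ratio of VPA to lithium was 1.48, 4.01 and 1.74 for Calr and 1.81, 3.61 and 1.65 for Pdia4. It was 1.52, 2.46 and 1.36 for Hyou1 and 4.23, 11.8 and 2.45 for Sdf2l1. No pairing of VPA and lithium libraries is stated, so these ratios only describe single libraries.

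Of a list of 57 ER folding genes, 11 had a name and enough counts, and 9 were called higher with VPA, 1 lower and 1 not (adjusted p in edgeR's test). Their median log2 change was 1.14, against -0.01 over all genes tested and 0.90 over genes with a symbol. Over all tested genes 5.71% were called higher and 2.99% lower, but over the 1252 tested genes with a symbol 50.2% were called higher and 26.9% lower. The names come from authors' tables chosen by p-value on these samples, and 4 of the 9 are the genes picked for this contrast, so the count shows nothing particular to the list. Beside the 4 genes the rises were those of Clgn, a calnexin-like lectin known from testis (2.61 ± 0.29), and of Ero1b, the oxidase that recharges disulfide isomerases (1.84 ± 0.34). They also held the disulfide isomerase Pdia5 (1.14 ± 0.18), the prolyl isomerase Fkbp9 (0.83 ± 0.15) and the calcium-binding nucleobindin Nucb2 (0.74 ± 0.17; log2 ± SE). Tor1a, an ATPase of the ER and nuclear envelope, fell by 0.74 on the log2 scale. Manf, a secreted BiP-binding factor, had a log2 difference of 0.97 ± 0.32 (SE) and did not pass (edgeR adjusted p = 0.0844).

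These genes differed in VPA 2. Manf had 209 CPM in VPA 1, 552 in VPA 2 and 228 in VPA 3, with 191, 166 and 145 CPM under lithium and 158, 184 and 163 CPM in control. Ero1b had 57.3 CPM in VPA 1, 101 in VPA 2 and 41.3 in VPA 3, with 14.9 to 25.3 CPM under lithium and 13.5 to 24.2 CPM in control. VPA 2 was thus high for Manf (2.53-fold above the mean of its partners) and Ero1b (2.07-fold), as for the 4 genes. The other rises did not have this shape: VPA 2 stood at 0.858-fold of its partners for Clgn, 0.992-fold for Pdia5, 0.922-fold for Fkbp9 and 1.32-fold for Nucb2. Pdia5, for example, had 58.4 CPM in VPA 1, 68.8 in VPA 2 and 82.2 in VPA 3, with 26.4 to 31.6 CPM under lithium and 28.0 to 33.5 CPM in control. So VPA 2 stood 2-fold or more above the mean of VPA 1 and 3 for 6 of the 11 named ER folding genes. The same held for 1.72% of all genes. The 4 genes among these 6 were picked for it, which leaves Manf and Ero1b. The 11 were named through authors' tables chosen by p-value, and the share among genes with a symbol was not worked out.

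**Figure D4:**
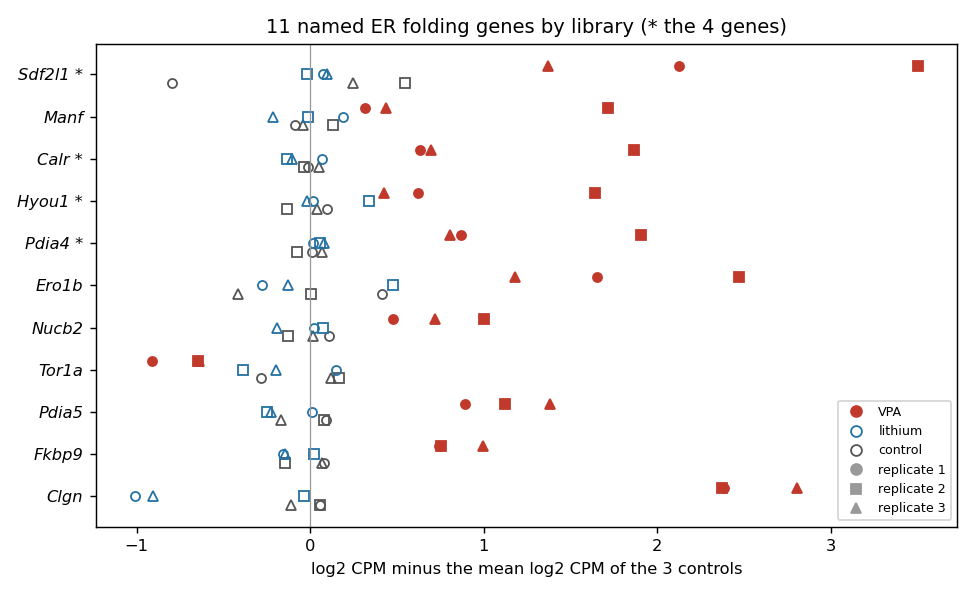
Log2 CPM of 11 named ER folding genes in each library minus the mean log2 CPM of the 3 controls, ordered from top to bottom by how far VPA 2 lies from VPA 1 and 3; stars mark Calr, Pdia4, Hyou1 and Sdf2l1. VPA 2 (red square) stands apart for Sdf2l1, Manf, Calr, Hyou1, Pdia4 and Ero1b, while the VPA libraries lie closer together for Nucb2, Pdia5, Fkbp9 and Clgn.

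A pattern set after values were seen was used to find other genes like these. VPA 2 had to be at least 2-fold above the mean of VPA 1 and 3 (taken on the log2 scale). VPA 1 and 3 had to lie above all lithium and control libraries. The pattern was met by 11 of 12719 genes (0.0865%), all 11 with a symbol. Symbols were at hand for 1252 tested genes, through authors' tables chosen by p-value on these samples. A pattern of genes high with VPA therefore favours genes with a symbol. The 11 were the 4 genes, Manf, Ero1b and 5 outside the ER folding list. By Pearson correlation of log2 CPM over the 9 libraries, where the 9 points share library and depth, the named gene nearest to Calr was Pdia4 (r = 0.99), followed by Manf (0.97). Nearest to Pdia4 were Calr and Hyou1 (r = 0.99 and 0.96), and nearest to Hyou1 was Pdia4 (0.96). Nearest to Sdf2l1 was Plk5, a polo-like kinase family gene (r = 0.98), followed by Pdk1 (0.97). Further names among the nearest 5 of each were Pdk1, which encodes a kinase that restrains pyruvate dehydrogenase, Ggct, Dok5, Plcd4, Prelid2, Trim16, Mllt11 and Fcho1. The search covered the 836 named genes that averaged at least 5 CPM, and these descriptions carry no p. The 4 genes were picked as high with VPA and highest in VPA 2, so their likeness to one another is partly built in.

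Levels per length come from the authors' deposited Cufflinks table, which gives 1 FPKM value per group. There Calr had 1056 FPKM with VPA and 483 FPKM in control, Pdia4 299.6 and 129.9 FPKM, and Sdf2l1 38.3 and 6.68 FPKM. Per length, Calr was thus the most abundant of these and Sdf2l1 the least in both groups. Hyou1 is not listed in that table. The table also lists BiP itself, Hspa5, at 1595 FPKM with VPA and 469.9 FPKM in control, with an authors' q of 0.00808.

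The authors' deposited Cufflinks table lists 13 ER folding genes, 12 higher and 1 lower with VPA, in a table where 637 of 1097 lines are higher. Among those not analysed here by counts were Creld2, a disulfide isomerase-like ER protein, at 132.7 FPKM with VPA and 59.5 FPKM in control, and the BiP co-chaperones Dnajc3 (18.6 and 8.81 FPKM) and Dnajb9 (26.9 and 16.3 FPKM). Whether these follow VPA 2 cannot be read from group values. The authors' deposited Salmon and sleuth table lists 1 transcript each of Calr, Pdia4 and Sdf2l1. Its effects on the natural log scale were 0.75 ± 0.23, 0.82 ± 0.20 and 1.61 ± 0.43 (the authors' SE), or 2.11-, 2.26- and 4.99-fold. The authors' deposited DESeq2 table, rounded to 1 decimal, gives log2 changes of 1.0 for Calr, 1.1 for Pdia4, 0.8 for Hyou1 and 1.3 for Sdf2l1. For Sdf2l1 that is well below the 2.53 found here from the counts and the 2.52 of the authors' deposited Cufflinks table, and the cause was not tested.

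**Figure D5:**
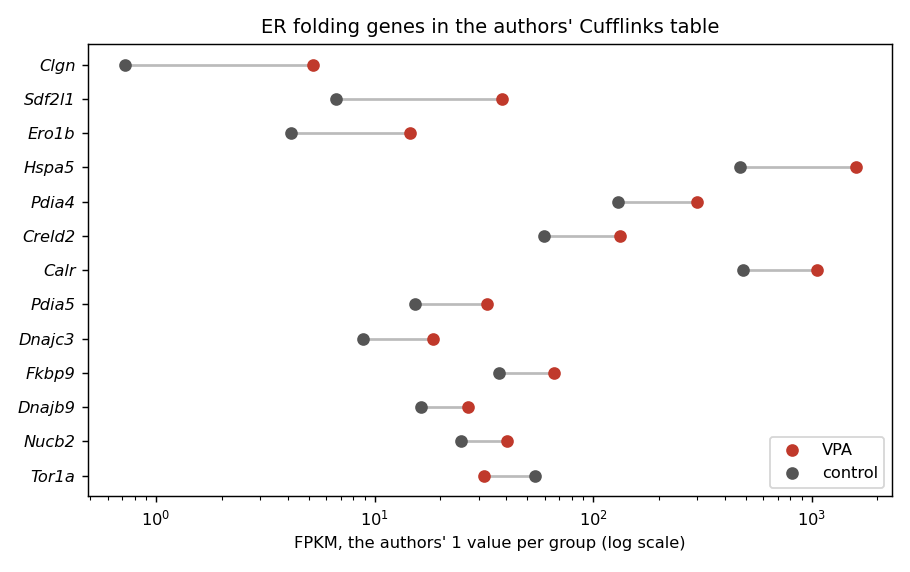
FPKM (log axis) of the 13 ER folding genes in the authors' Cufflinks table, 1 value per group with no replicate error, ordered by the ratio of VPA to control. Of these genes 12 are higher with VPA, from Clgn at 7.27-fold to Nucb2 at 1.62-fold, and Tor1a is lower.

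Other arms of the pathway had few named genes, and the calls among them are to be read against the 50.2% of genes with a symbol called higher and the 26.9% called lower (5.71 and 2.99% of all tested genes). On the list of unfolded protein response signalling genes, 2 of 36 were named and tested and both fell: Aldh1l2, a mitochondrial folate enzyme (log2 change -1.20 ± 0.21), and Phgdh, the first enzyme of serine synthesis (-0.98 ± 0.24). Both are known targets of ATF4, the factor downstream of PERK. Phgdh had 271 CPM in VPA 1, 264 in VPA 2 and 192 in VPA 3, with 390 to 571 CPM under lithium and 374 to 627 CPM in control, so VPA 2 did not stand apart in it. The authors' deposited Cufflinks table also lists the transcription factor Cebpb (65.1 FPKM with VPA, 120.4 FPKM in control) and Stc2 (5.39 and 8.70 FPKM) as lower. Both named genes of the signal peptidase, which trims chains entering the ER, rose (2 of 44 genes on the list of translocation and glycosylation). Sec11c rose by 1.03 ± 0.29 and Spcs3 by 1.03 ± 0.29 (log2 ± SE). Control 3 was the lowest control for both, and against lithium neither was called (edgeR adjusted p = 0.0742 and 0.107). Of 3 named genes of ER calcium handling (25 on the list), the release channel Ryr1 rose by 1.34 ± 0.29, the calcium buffer Casq1 fell (-1.16 ± 0.28), and Rcn3 did not pass (-0.09 ± 0.19). Of the 2 named cytosolic heat shock genes (37 on the list), Hspa4l rose by 1.03 ± 0.21 and Hspa1l did not pass (-1.26 ± 0.39). Adjusted p-values of these calls ran from 0.00511 for Aldh1l2 to 0.0496 for Spcs3 in edgeR. The lists of ER-associated degradation (32 genes) and of traffic between ER and Golgi (45 genes) had 0 named genes with enough counts.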

How the data were processed

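Polyadenylated RNA was sequenced unstranded, per the labels, so a gene and an overlapping antisense neighbour cannot be told apart. The authors deposited raw read counts per Ensembl gene (HTSeq per the table's title). The submitters' processing notes name STAR 2.5.1, DESeq2, Salmon 0.6.1, sleuth and Cufflinks 2.2.1. The build was not given in the sources used here, nor was the annotation. The authors' deposited tables for VPA hold DESeq2's log2 fold changes, p-values, test score and a mean signal in normalized counts, FPKM per group from Cufflinks (its log2 ratios were turned to VPA over control here), and sleuth's transcript effects in natural log units. A table titled for kallisto repeats the identifiers of the DESeq2 table in all 1212 lines and was not used.

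Counts as deposited were tested with edgeR 4.0.16 (R 4.3.3). Genes passed filterByExpr at a minimum count of 10, libraries were scaled by TMM, and group means of all 9 libraries were fitted with robust quasi-likelihood, which left 6 residual degrees of freedom. Tests were two-sided, with Benjamini-Hochberg adjustment over 12719 genes and calls under 0.05. The standard error was the log2 change over the square root of F. By library, 1 count was worth 0.0770 to 0.109 CPM. Library differences used log2 CPM with a prior count of 2. The fit was tested on simulated data. Same-numbered VPA and control libraries deviated together (correlations 0.600, 0.533 and 0.525 over 10288 genes), so the title numbers, though no pairing is stated, were taken as pairs in a blocked fit. Lithium and control libraries deviated together for number 3 only (-0.418, -0.0815 and 0.801). DESeq2 1.42.0 was an alternative.

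The 4 genes and all lists were chosen with earlier results of these data known. Named besides them were list members with a name and enough counts, the 5 named genes most like each, and the 5 furthest up in VPA 2; the genes of the shared VPA 2 pattern were chosen after their values were seen. A gene with that pattern is not reported here.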

Additional observations from a re-analysis of the deposited data

How the results depend on the processing

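Results were recomputed with DESeq2, upper-quartile, median-ratio or total scaling, no filter, 1 CPM in 3 libraries, a non-robust fit, only the 2 groups compared, the replicate block (alone or, added after seeing the data, with only the 2 groups), and without each library. All 4 genes were higher with VPA, against control and against lithium, in every fit. Of the 4, VPA against control called 2 with only the 2 groups (Calr, adjusted p = 0.0529 in edgeR, and Hyou1, 0.0711, lost their calls) and 2 to 4 without 1 library. Without a filter Sdf2l1 lost its call (adjusted p = 0.0501, edgeR). VPA against lithium called 3 of the 4, and 1 to 4 without 1 library. Pdia4 lost that call without lithium 1 or lithium 2 (edgeR adjusted p = 0.0561 and 0.0550). Calr lost it without VPA 2 or any 1 lithium library (edgeR adjusted p = 0.0631 to 0.0940). Hyou1 was not called against lithium with all 9 libraries (edgeR adjusted p = 0.0831). It was called by DESeq2 (adjusted p = 0.0268), with no filter (edgeR, 0.0331) and with the replicate block (0.0494, and 0.0324 on the 2 groups). Yet VPA and lithium libraries deviated together for number 3 only (correlations -0.181, 0.0530 and 0.538). Over all genes VPA against control called 1106, 1741 with the replicate block, 2408 with the block on the 2 groups and 638 to 1026 without 1 library. VPA against lithium called 1009, 1609 with the replicate block and 544 to 1197 without 1 library.

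Lithium against control called 0 genes under every alternative. The log2 change of Sdf2l1 turned sign, from -0.05 to 0.045 with the replicate block and 0.030 with the block on the 2 groups, and ran from -0.36 to 0.22 without 1 library. That of Pdia4 ran from -0.0064 to 0.081, of Hyou1 from -0.0054 to 0.18 and of Calr from -0.14 to -0.02. A whole ERSE was held by 1 of the 4 promoters (0.0657% of all windows). When only the short words were searched for, CCAAT was held by 4 (34% of windows) and CCACG by 3 (27.2%). In Calr and Hyou1 each CCACG is part of the ERSE or ERSE-II matches. On the 2 groups alone, VPA against control called 4 of the 4 genes with the block (edgeR adjusted p = 0.0191 for Calr and 0.0403 for Hyou1). With all 9 libraries the block changed no call of the 4 genes other than that of Hyou1 against lithium. Depth limits Sdf2l1 most, with 37 to 81 counts per control library.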

Other observations

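Among genes outside the ER folding list that shared the VPA 2 pattern of the chaperones were Carmil3, Ccr1, Ggct and Smox, with VPA 2 2.08- to 2.62-fold above the mean of VPA 1 and VPA 3. Smox, which oxidises spermine, had 50.7 CPM in VPA 1, 75.9 in VPA 2 and 25.0 in VPA 3, with 18.2 to 22.8 CPM under lithium and 18.8 to 23.6 CPM in control. Ggct, an enzyme of glutathione breakdown, had 40.1 CPM in VPA 1, 77.9 in VPA 2 and 28.8 in VPA 3, with 16.1 to 23.7 CPM under lithium and 19.5 to 24.9 CPM in control. The pattern itself required the VPA libraries to lie above all others, and VPA 2 was the highest for both Smox and Ggct. For Smox VPA 3 (25.0 CPM) lay only a little above the highest control (23.6 CPM). For Smox VPA 2 lay less far above VPA 1 than above VPA 3.

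Among genes with a symbol (1252 of the 12719 tested), Sdf2l1 deviated furthest upwards in VPA 2, for which it was picked. Over all 12719 genes, 43 (0.338%) deviated upwards there at least as far, Sdf2l1 included. After Sdf2l1 came, among genes with a symbol, Adam33 (3.16-fold above the mean of VPA 1 and VPA 3), Pkp3 (2.90-fold), Stc1 (2.72-fold) and Acap1 (2.68-fold). Adam33, a membrane protease, moved the other way from the chaperones between the groups. It had 3.90 CPM in VPA 1, 9.43 in VPA 2 and 2.09 in VPA 3, with 14.8 to 20.2 CPM under lithium and 21.3 to 45.4 CPM in control. Stc1, a secreted glycoprotein hormone, had 5.30 CPM in VPA 1, 9.75 in VPA 2 and 2.25 in VPA 3, with 1.00 to 1.23 CPM under lithium and 1.19 to 2.27 CPM in control, so VPA 3 overlapped the controls. In the count table Pkp3 had 11, 22 and 7 reads in VPA 1, 2 and 3, so its deviation rests on few reads.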
